A study of Mus musculus with 8 samples.

Results

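C-type lectin receptors are membrane proteins with which macrophages bind sugars and lipids on microbes and on damaged cells. The 7 genes described here are Mrc1, Clec10a, Clec7a, Clec4n, Clec4d, Clec4e and Clec4a2, and their members were all probe sets that the platform annotation assigns to 1 of these genes. These are 7 of 12393 genes named by a probe set of their own, and they had 11 of 22626 probe sets, of which 10 name 1 gene and 1 names both Clec4b1 and Clec4a2. Their signals were followed over 8 arrays of mouse bone marrow derived macrophages, 1 array for each combination of genotype, IFN-gamma and calcitriol.

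The cells came from Vdr-/- mice, which lack a functional vitamin D receptor gene (the allele label on the untreated array is Vdr tm1 Rge), or from wild-type mice. For each genotype there was an array with IFN-gamma and calcitriol, with IFN-gamma, with calcitriol (1alpha,25(OH)2D3, the active form of vitamin D) and without treatment. All cells were grown from marrow with M-CSF (50 ng/ml, 7 days), a growth factor for macrophages, and treatments lasted 24 to 48 hours. The sources used here give no strain, age, dose or number of mice behind an array. No group had a replicate, so every test rests on a contrast repeated over the other factors, and the number of arrays limits its precision.

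Mrc1 encodes the mannose receptor and Clec10a the galactose-type lectin MGL1, and both are used as markers of alternatively activated macrophages. Clec7a (Dectin-1) binds fungal beta-glucan and signals through its own cytoplasmic motif to the kinase Syk. Clec4n (Dectin-2), Clec4d (MCL) and Clec4e (Mincle) bind fungal mannans or mycobacterial glycolipids and signal through the Fc receptor gamma chain, while Clec4a2 (DCIR) carries an inhibitory motif. IFN-gamma drives the classical activation of macrophages, and calcitriol acts through the receptor that Vdr encodes.

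Clec4a2, Clec4n, Clec4d and Clec4e lie in 1 run of 9 C-type lectin genes on chromosome 6, where Clec4d stands between Clec4n and Clec4e (gene order from RefSeq, GRCm38.p6). Clec7a lies elsewhere on chromosome 6, Mrc1 on chromosome 2 and Clec10a on chromosome 11. RefSeq promoters (250 bases before to 50 after the start) were at hand for 5 of the 7 genes, and 4 are printed because their genes gave the contrasts described below. Clec4d and Clec4a2 fell with IFN-gamma, Clec4e is the neighbour of Clec4d that did not pass the test, and Mrc1 is the member called for calcitriol. Capitals mark every match, on either strand, to 3 motifs: AGGTCA (an element of nuclear receptor sites), GAGGAA (core of the PU.1 site) and TGANTCA (AP-1).
Clec4d, chr6:123261857-123262156, plus strand: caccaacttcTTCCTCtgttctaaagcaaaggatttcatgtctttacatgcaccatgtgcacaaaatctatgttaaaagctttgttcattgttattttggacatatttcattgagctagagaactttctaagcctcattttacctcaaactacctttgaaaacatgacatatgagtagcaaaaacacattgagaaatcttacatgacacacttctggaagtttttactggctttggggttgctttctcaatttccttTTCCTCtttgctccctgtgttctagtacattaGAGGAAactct
Clec4e, chr6:123289822-123290121, minus strand: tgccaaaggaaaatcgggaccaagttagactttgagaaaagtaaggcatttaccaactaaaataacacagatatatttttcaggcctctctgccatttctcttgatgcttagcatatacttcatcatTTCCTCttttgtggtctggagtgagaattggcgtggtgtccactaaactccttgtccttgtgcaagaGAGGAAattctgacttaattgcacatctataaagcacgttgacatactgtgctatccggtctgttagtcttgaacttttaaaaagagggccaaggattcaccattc
Clec4a2, chr6:123122440-123122739, plus strand: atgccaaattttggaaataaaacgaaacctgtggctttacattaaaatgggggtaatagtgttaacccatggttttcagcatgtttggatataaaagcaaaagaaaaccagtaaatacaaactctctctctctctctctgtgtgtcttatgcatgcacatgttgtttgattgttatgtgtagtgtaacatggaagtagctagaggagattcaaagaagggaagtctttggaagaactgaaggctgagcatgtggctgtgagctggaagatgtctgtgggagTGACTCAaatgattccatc
Mrc1, chr2:14229164-14229463, plus strand: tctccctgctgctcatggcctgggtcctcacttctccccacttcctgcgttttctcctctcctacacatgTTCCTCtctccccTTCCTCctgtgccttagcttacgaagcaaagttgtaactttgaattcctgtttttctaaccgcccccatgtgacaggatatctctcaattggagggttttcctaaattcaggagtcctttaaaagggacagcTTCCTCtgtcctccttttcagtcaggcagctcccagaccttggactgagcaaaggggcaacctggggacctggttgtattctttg
The capitals are GAGGAA or its reverse complement TTCCTC in Clec4d, Clec4e and Mrc1. In Clec4a2 they are 1 match to TGANTCA, downstream of the start, and no matches overlapped. Of the 5 genes with a promoter 4 held GAGGAA, against 28.3% of all 32851 promoters of the table. Of these 5, 1 held TGANTCA (7.81% of all promoters) and 0 held AGGTCA (16.3%). These are letter matches in a short window and no sites of binding.

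Signals are linear array units, and values under 15.5, the pooled 25th percentile, were raised to that floor before log2 was taken. A probe set was tested if at least 1 array reached the pooled median signal of 59.1, which left 18058, and 10 of the 11 members passed. The member that did not, the second Clec4e probe set (1420331_at), read 50.5 or less on every array. A probe set was called when its limma p, adjusted after Benjamini and Hochberg over all tested probe sets, was under 0.05.

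The array labelled wild-type calcitriol and the array labelled Vdr-/- untreated stood apart from the rest. Their log2 signals correlated with those of other arrays at 0.741 to 0.809, while the other 6 arrays correlated at 0.815 to 0.897 among themselves (Pearson's r across probe sets, which are not independent). On both, the 3'/5' ratio of the Gapdh control, a sign of truncated RNA, was above that of any other array, at 7.67 and 4.82 against 0.853 to 3.06 on the others. Both are arrays without IFN-gamma. Vdr itself went against the untreated labels, since its 2 probe sets read 90.3 and 63.2 on the array labelled Vdr-/- untreated, against 6.7 and 5.3 where the label was wild-type untreated. The other 3 pairs ran as labelled, with 25 and 23.6 in Vdr-/- against 226.7 and 385.9 in wild type with both treatments, 45.6 and 2.5 against 84.4 and 82.9 with IFN-gamma, and 2.6 and 9.8 against 51.5 and 118.1 with calcitriol. The sources used here do not say whether these probe sets cover the disrupted part of Vdr. Results are therefore also given without the 2 high-ratio arrays and without both untreated arrays.

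**Figure D1:**
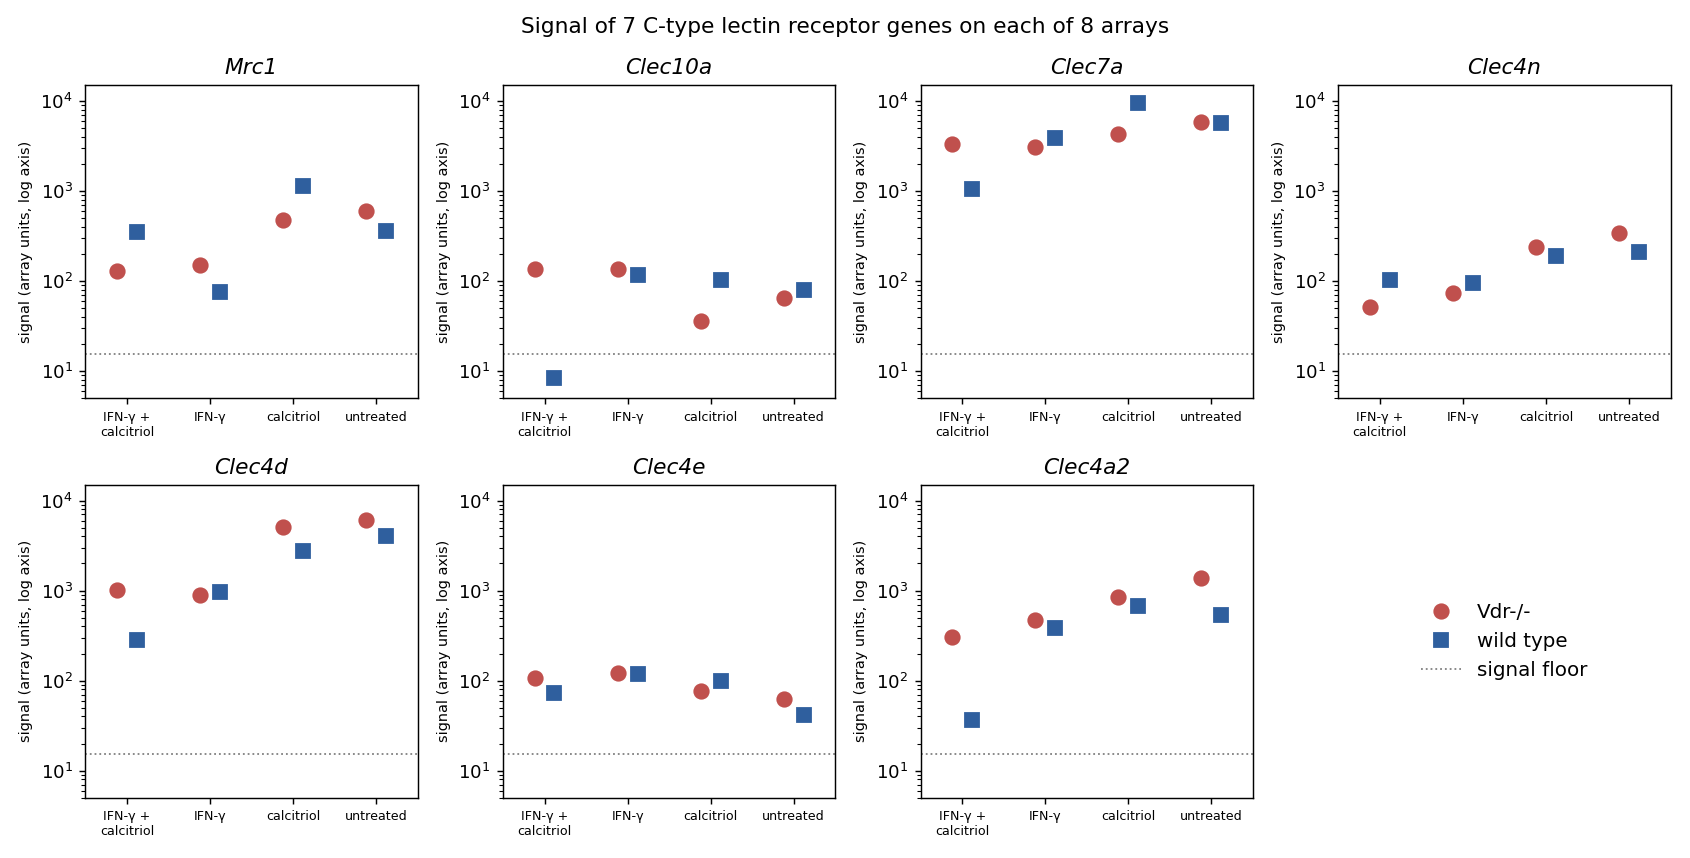
Signal of the brightest tested probe set of each of the 7 genes, in array units on a log axis, by treatment, with a circle for the Vdr-/- array and a square for the wild-type array (1 array each) and a dotted line at the floor of 15.5. Clec4d lies between 281.9 and 1020.5 on the 4 arrays with IFN-gamma and between 2748.1 and 6150 on the 4 without it, and the wild-type array with both treatments is the lowest for Clec10a, Clec7a, Clec4d and Clec4a2.

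The arrays with IFN-gamma were set against those without over 4 pairs, to ask how classical activation changes these receptors. Clec4d, Mrc1, Clec4a2, Clec4n and Clec7a fell, by 6.06-fold for Clec4d to 2.38-fold for Clec7a, while Clec10a and Clec4e did not pass the test. Of the 10 tested members 7 were called lower and 0 higher, against 3.43% of all tested probe sets called, 1.27% lower and 2.15% higher. These members stand for 7 genes and were chosen with earlier results of these data known, which limits a comparison with such shares. On 7 of the 10 all 4 arrays with IFN-gamma were below all 4 without it, against 3.69% of all tested probe sets, and on 0 all 4 were above, against 3.11%. That separation does not use the genotype labels of the untreated arrays.

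Clec4d, the mycobacterial glycolipid receptor MCL, showed the largest fall of the brightest probe sets. It read 1020.5 and 281.9 on the Vdr-/- and wild-type arrays with IFN-gamma and calcitriol, and 901.4 and 972.5 with IFN-gamma alone, against 5042.7 and 2748.1 with calcitriol and 6150 and 4003.5 without treatment. Every array with IFN-gamma was thus below every array without it, with a wide gap between them. The log2 change was -2.60 (SE 0.227, limma adjusted p = 1.81e-08), and the 4 pairs ran from -3.29 to -2.04.

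Clec4n, which encodes Dectin-2 and is the neighbour of Clec4d, fell on both of its probe sets. The brighter one (1419627_s_at) read 50.7 and 102.3 on the Vdr-/- and wild-type arrays with both treatments and 73.3 and 94.5 with IFN-gamma alone, against 239.6 and 190.2 with calcitriol and 337.8 and 207.2 without treatment. Here the wild-type array with both treatments was the highest of the IFN-gamma arrays. The log2 change was -1.62 (SE 0.382, limma adjusted p = 0.0135). The other probe set (1425951_a_at) fell by 2.39 on the log2 scale (SE 0.609, limma adjusted p = 0.0245), with 3 of its 4 IFN-gamma arrays at the floor. The size of that fall thus depends on the floor, from -1.36 to -3.35 over the alternatives. This probe set passed the filter only through the arrays without IFN-gamma.

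Clec4e encodes Mincle, the inducible partner of MCL, and is the neighbour of Clec4d on the other side. It read 108.2 and 72.3 on the Vdr-/- and wild-type arrays with both treatments and 120.8 and 117.2 with IFN-gamma alone, against 75.9 and 99.3 with calcitriol and 61.9 and 41.2 without treatment. The groups overlapped, and the log2 change was 0.63 (SE 0.491, limma adjusted p = 0.678). The difference between Clec4e and its neighbours was not tested.

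Clec4a2, the inhibitory receptor of the group, fell on its brighter probe set (1422013_at). It read 305.8 and 37 on the Vdr-/- and wild-type arrays with both treatments and 466.2 and 381 with IFN-gamma alone, against 849.3 and 681.7 with calcitriol and 1388.7 and 541.9 without treatment. The groups did not overlap, and the wild-type array with both treatments was far below the others. The log2 change was -1.94 (SE 0.372, limma adjusted p = 0.00189), and -1.19 (adjusted p = 0.186) without the wild-type pair that holds this array. The second Clec4a2 probe set (1425406_at) overlapped between the groups, with a fitted log2 change of -1.66 (adjusted p = 0.125). The probe set shared with Clec4b1 (1425407_s_at) fell by 1.67 on the log2 scale (SE 0.277, adjusted p = 0.000346), and it cannot tell these 2 genes apart.

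Clec7a, which encodes the beta-glucan receptor Dectin-1, fell less. It read 3329.3 and 1049.6 on the Vdr-/- and wild-type arrays with both treatments and 3033.7 and 3826.9 with IFN-gamma alone, against 4233.5 and 9466.8 with calcitriol and 5785.6 and 5639.8 without treatment. The groups did not overlap, but the highest array with IFN-gamma and the lowest without it lay close together. The log2 change was -1.25 (SE 0.317, limma adjusted p = 0.0227), and -0.61 (adjusted p = 0.491) without the wild-type pair with calcitriol. The call was also lost with all arrays kept, with the lower floor (adjusted p = 0.0661), with additive covariates (0.0837) and with the filter at the 75th percentile (0.0925). It was lost by more without the intensity trend in limma (adjusted p = 0.496) and without the filter (0.537).

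Mrc1, the mannose receptor gene, read 128.3 and 348.3 on the Vdr-/- and wild-type arrays with both treatments and 150.2 and 76 with IFN-gamma alone, against 479.6 and 1125.2 with calcitriol and 593.4 and 357.8 without treatment. The groups did not overlap, although the wild-type array with both treatments came close to the untreated wild-type array. The log2 change of -1.95 (SE 0.267, limma adjusted p = 2.75e-05) was alike in the 4 pairs, from -2.24 to -1.69. The other marker of alternative activation, Clec10a, read 136.6 and 8.3 on the Vdr-/- and wild-type arrays with both treatments and 134.2 and 115.5 with IFN-gamma alone, against 36.1 and 102.2 with calcitriol and 64.5 and 80.1 without treatment. It was higher with IFN-gamma in 3 of 4 pairs and far lower in the wild-type pair with calcitriol, and its log2 change was 0.20 (SE 0.623, adjusted p = 0.94).

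**Figure D2:**
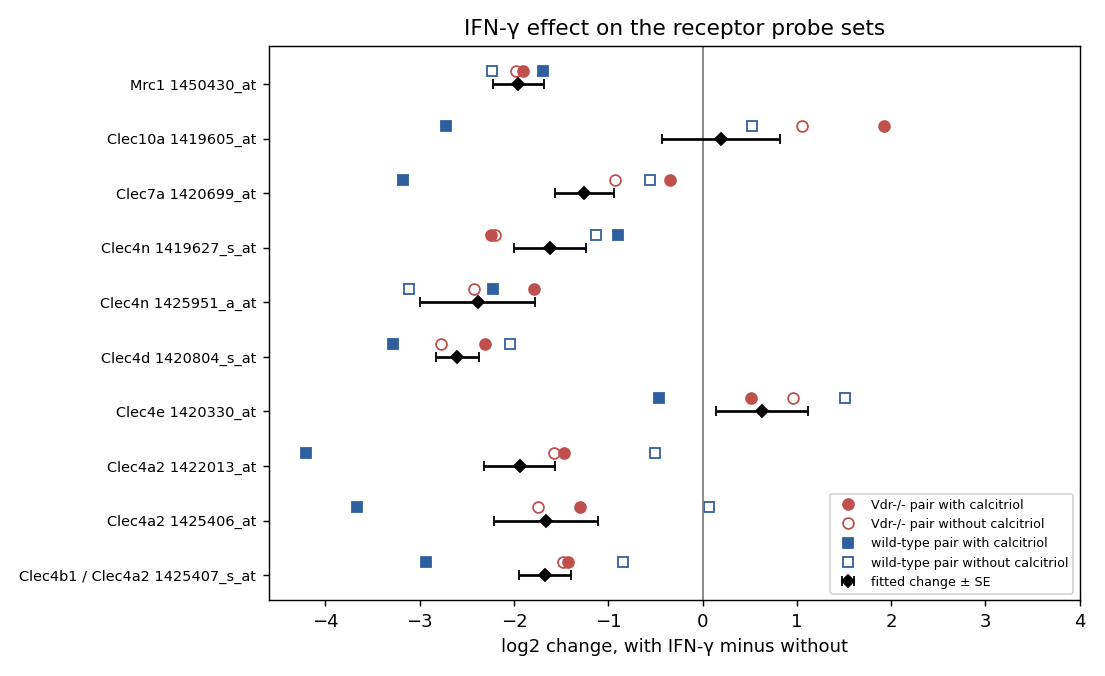
Log2 change with IFN-gamma for the 10 tested probe sets: black diamonds are the limma estimates with their SE, and the symbols above them are the 4 single array pairs, circles for Vdr-/- and squares for wild type, filled with calcitriol and open without it. All 4 pairs lie below 0 for Mrc1, Clec7a, both Clec4n probe sets, Clec4d, the brighter Clec4a2 probe set and the Clec4b1 / Clec4a2 probe set.

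The IFN-gamma calls depended on the settings and arrays. Of 13 alternatives, 3 ended the call for Clec4d and for Mrc1, 7 for the brighter Clec4a2 probe set and for that shared with Clec4b1, 8 for the brighter Clec4n probe set and 10 for Clec7a. Without the 2 high-ratio arrays 0 of the 10 members were called (6 with an unadjusted p under 0.05, limma), and the log2 change was -2.66 for Clec4d (adjusted p = 0.164) and -1.46 for Mrc1 (0.528). Without both untreated arrays 0 were called (8 with an unadjusted p under 0.05), as were 0 without the intensity trend in limma (7), while the sign of the 7 called members did not turn in any alternative. With 1 of the 4 pairs left out, Clec4d and Mrc1 were called each time, 5 members were called without the Vdr-/- pair with calcitriol, and 2 with any other pair left out. The Clec4n probe set 1419627_s_at lost its call without any 1 pair (adjusted p = 0.136 to 0.422), and the Clec4b1 and Clec4a2 probe set without any pair but that one (0.0537 to 0.232).

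Other genes of the pathway were read from lists. Of 48 other genes of C-type lectin receptors and related proteins 37 had a singly named probe set and 22 were tested, and IFN-gamma was called for 0 of them, which is near the 3.43% called over all probe sets. Their median log2 change was 0.08, against -0.08 over all tested probe sets and -1.62 for the 7 genes described here. Most of the 22 were at the floor on some arrays, and only Cd302, Cd72 and Cd93 read 204.9 or more on every array. Signal near background therefore limits what this count and median can show. Cd93, a lectin-like receptor, had the lowest unadjusted p of the 22, with a log2 change of -0.91 (limma adjusted p = 0.093). Of 29 tested genes of receptor signalling 1 rose and 2 fell (2.15% and 1.27% over all probe sets), with a median log2 change of 0.01. Syk, the kinase that these activating receptors use, fell by 0.94 on the log2 scale (SE 0.232, adjusted p = 0.0183). Blnk, a Syk adaptor, fell by 1.44 (SE 0.217, adjusted p = 0.000106), and Ptpn6, the phosphatase that inhibitory receptors recruit, rose by 2.05 on the log2 scale (SE 0.285, adjusted p = 3.28e-05). On the 2 high-ratio arrays Ptpn6 read 116.1 and 130.5, against 416.7 and 718.3 on the other arrays without IFN-gamma. With IFN-gamma it read 585.7 to 1508, so the groups overlapped. The part of the RNA state in this rise was not tested. The adaptor genes were not called, with log2 changes of 0.08 for Fcer1g (adjusted p = 0.937) and -0.27 for Tyrobp (0.765).

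Markers of cell types were read beside these changes. The summed signal of 11 macrophage markers ran from 53312.7 to 81220.9 on the arrays with IFN-gamma and from 59627 to 76627.2 on those without it. The sum of 11 dendritic cell markers was 3708.6 to 7040.4 with IFN-gamma and 1875.9 to 2840.8 without it, and 86.3% to 95.8% of it came from Irf8, Itgax and Cd83, which macrophages also express. The dendritic cell genes Xcr1 and Ccr7 were at the floor on 6 of the 8 arrays and Flt3 on 3. The sum of 14 neutrophil markers was 659.2 to 1241.4 with IFN-gamma and 928.7 to 1054.2 without it, and that of 10 stromal markers 209.4 to 397 with it and 442.9 to 881.9 without it. By limma, IFN-gamma was called higher for 3 of the 11 macrophage markers (Fcgr1, C1qa and C1qb) and 2 dendritic cell markers (Cd83 and Irf8), and lower for 1 stromal marker, the collagen gene Col3a1, against 2.15% higher and 1.27% lower over all probe sets. On the 2 high-ratio arrays C1qb read 3030.6 and 2238.2, against 13382.1 and 13830.1 on the other arrays without IFN-gamma. With IFN-gamma it read 11298.9 to 18801.5. These 2 arrays were also the lowest of all 8 for C1qa and Fcgr1. Whether the state of the RNA took part was not tested. The part of other cells in the receptor changes was not tested, and in such bulk RNA fewer cells of a type and less RNA per cell cannot be told apart.

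Calcitriol was compared with no calcitriol within each genotype over 2 pairs, to ask whether the receptors respond where Vdr is intact. Mrc1 rose in wild-type cells, and it was the 1 member called of 10, against 0.576% of all tested probe sets called, 0.188% higher and 0.388% lower. In Vdr-/- cells 0 of 10 members were called (0 with an unadjusted p under 0.05, limma), against 0.194% of all tested probe sets. Every calcitriol contrast without IFN-gamma rests on an array labelled untreated. Each of these pairs also holds 1 high-ratio array, the calcitriol array in wild type (7.67) and the untreated array in Vdr-/- (4.82). In these pairs calcitriol and the state of the RNA cannot be told apart, and the 2 genotypes hold them in opposite directions.

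The Mrc1 signals given above were 3.14-fold higher with calcitriol in wild-type cells without IFN-gamma and 4.58-fold higher with it. In Vdr-/- cells the corresponding log2 differences were -0.31 and -0.23. The 2 high-ratio arrays gave the highest Mrc1 signals of all 8, 1125.2 (wild-type calcitriol) and 593.4 (Vdr-/- untreated). The part of the RNA state in these differences was not tested. The log2 change in wild type was 1.92 (SE 0.391, limma adjusted p = 0.0216) and in Vdr-/- -0.27 (SE 0.391, adjusted p = 0.958). The calcitriol effect was higher in wild type than in Vdr-/- by 2.19 log2 (SE 0.554, adjusted p = 0.0435), a test that called 1.5% of all tested probe sets, 0.172% higher and 1.33% lower. Without the 2 high-ratio arrays the wild-type change was 2.11 (adjusted p = 0.599) and the difference 2.42 (0.702). Without both untreated arrays they were 2.14 (0.844) and 2.32 (0.83), and with any 1 array left out the wild-type change was 1.65 to 2.20 with no call (adjusted p = 0.449 to 0.771). With an array of wild type left out, that change is the difference of the 1 pair that remains.

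Of the other 9 tested members, 6 stood low on the wild-type array with both treatments. This array was the lowest of all 8 for 6 of the 10 members, and it was the lowest for 13.4% of all tested probe sets. For these 6 members it lay at least 2-fold below the lowest of the other 3 arrays with IFN-gamma, a condition met by 5.04% of all tested probe sets. The condition was chosen after the values were seen, and 1 array carries it, so no test is given. Both Clec4a2 probe sets and the probe set shared with Clec4b1 are among these 6 members, so they stand for fewer genes than probe sets. Clec4a2 was 8.26-fold below the lowest of the other 3 on its brighter probe set, Clec4d 3.20-fold and Clec7a 2.89-fold. The Clec4b1 and Clec4a2 probe set was 4.78-fold below. Clec10a was at the floor there and at least 7.45-fold below, and the second Clec4a2 probe set, also at the floor, at least 3.25-fold. Mrc1 went the other way, at 2.32-fold above the highest of the other 3 IFN-gamma arrays (5% of all tested probe sets were at least 2-fold above). The other 3 members met neither condition: the Clec4n probe set 1419627_s_at was 1.08-fold above the highest of the other 3 arrays, Clec4e was less than 2-fold below the lowest, and the Clec4n probe set 1425951_a_at was at the floor. On this array the macrophage marker sum was 53312.7, against 64717.6 to 81220.9 on the other 3 arrays with IFN-gamma, and the dendritic cell marker sum 7040.4 against 3708.6 to 4137.7. Over both wild-type pairs calcitriol was called lower for 2 of 11 macrophage markers (Fcgr1 and Cd14), against 0.388% of all tested probe sets. The median log2 change over the list was -1.28. The difference between the genotypes was called lower for 6 of 11, against 1.33% of all tested probe sets, with a median of -2.41. All 6 read lower on the 2 high-ratio arrays than on the other arrays without IFN-gamma. Cd68 read 2200.6 (Vdr-/- untreated) and 1975.7 (wild-type calcitriol) there, against 7964 (Vdr-/- calcitriol) and 6139.8 (wild-type untreated). Whether the state of the RNA took part was not tested. In the same test of the difference between the genotypes the marker lists did not move alike. The dendritic cell marker Itgax was called higher, at 2.32 log2 (limma adjusted p = 0.0337), 1 of 8 tested against 0.172% of all probe sets. The neutrophil marker Csf3r was called lower, at -2.22 (adjusted p = 0.0368), 1 of 10 tested against 1.33%. The part of these markers in the receptor signals was not tested.

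Without IFN-gamma calcitriol did not lower these receptors alike in the 1 wild-type pair. That pair sets the high-ratio wild-type calcitriol array against the wild-type untreated array, whose Vdr signal went against its label. Calcitriol and the state of the RNA cannot be told apart in it. The single pair gave log2 differences of 0.75 for Clec7a, 0.33 for Clec4a2, 0.35 for Clec10a and -0.54 for Clec4d, and under IFN-gamma the same differences were -1.87, -3.36, -2.90 and -1.79. In Vdr-/- cells with IFN-gamma they were 0.13, -0.61, 0.03 and 0.18. Over both wild-type pairs the fitted log2 change was -1.16 for Clec4d (limma adjusted p = 0.14), -1.52 for Clec4a2 (0.263) and -1.21 for the Clec4b1 and Clec4a2 probe set (0.225), none of them called. In this fit a disagreement between the 2 pairs of a genotype counts as spread.

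**Figure D3:**
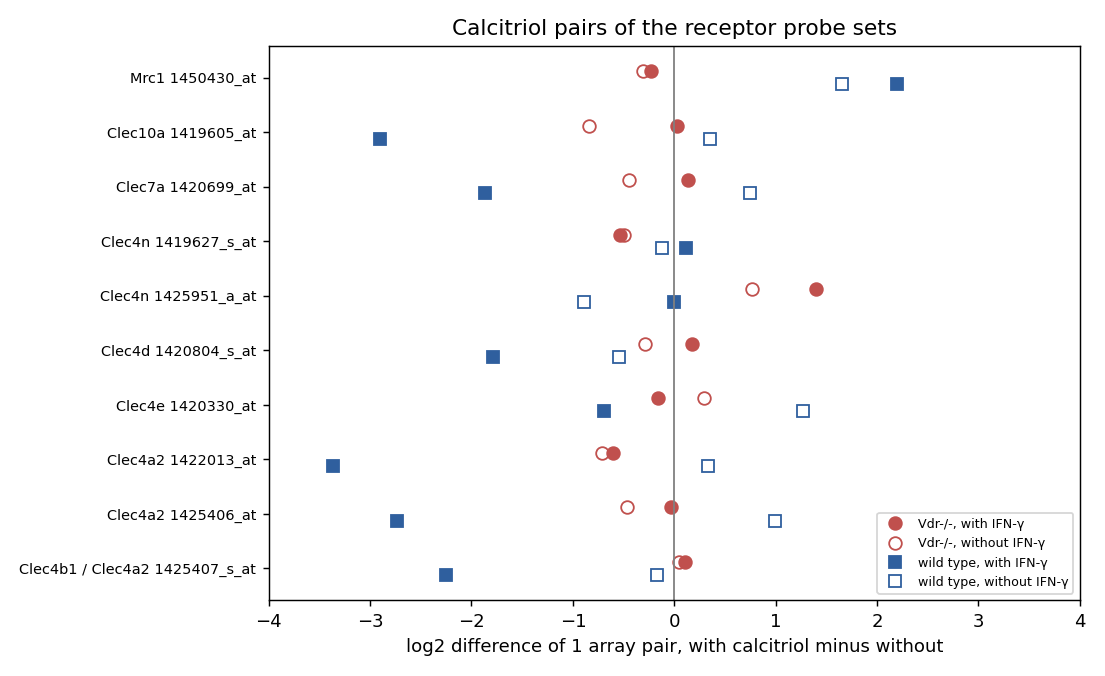
Log2 difference with calcitriol minus without for each single array pair of the 10 tested probe sets, circles for Vdr-/- and squares for wild type, filled with IFN-gamma and open without it. Mrc1 lies at 1.65 and 2.20 in wild type and just below 0 in Vdr-/-. The filled wild-type squares of Clec10a, Clec7a, Clec4d, both Clec4a2 probe sets and the Clec4b1 / Clec4a2 probe set lie at or below -1.79.

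Of the 22 tested other C-type lectin receptor genes 0 were called for calcitriol in either genotype, near the 0.194% called over all probe sets in Vdr-/- and the 0.576% in wild type, and the median log2 change in wild type was -0.20 against 0.05 over all tested probe sets. Most of these genes were at the floor on some arrays. Cd72, an inhibitory lectin-like receptor best known from B cells, was called for the difference between the genotypes, at -2.57 log2 (SE 0.58, limma adjusted p = 0.0212). Among signalling genes Pik3ap1, an adaptor that links receptors to PI3-kinase, fell by 2.44 on the log2 scale with calcitriol in wild type (SE 0.511, adjusted p = 0.026). Ptpn6 rose in Vdr-/- with calcitriol by 1.90 on the log2 scale (SE 0.394, adjusted p = 0.0416). Both genes, and Cd72, were lowest on the 2 arrays with high 3'/5' ratios. Cd72 read 571.1 (Vdr-/- untreated) and 610.5 (wild-type calcitriol) there, and 625 on the wild-type array with both treatments. Pik3ap1 read 68.1 on the wild-type calcitriol array against 860.4 untreated, and 914.5 on the Vdr-/- calcitriol array against 169.6 untreated. Ptpn6 read 130.5 against 416.7 in the wild-type pair, and 718.3 against 116.1 in the Vdr-/- pair. Whether the state of the RNA took part was not tested.

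Genotype was compared over 4 pairs of equal treatment to ask how loss of Vdr changes the receptors. The test called 0 of 10 members, and 0% of all 18058 tested probe sets, with 3 members and 611 probe sets at an unadjusted p under 0.05 (limma). These members were the brighter Clec4a2 probe set (log2 change 1.25, SE 0.385, adjusted p = 0.999), the Clec4b1 and Clec4a2 probe set (0.98, SE 0.343) and Clec4d (0.81, SE 0.321), each higher in Vdr-/-. The brighter Clec4a2 probe set was higher in 4 of 4 pairs, with log2 differences of 3.05 with both treatments, 0.29 with IFN-gamma, 0.32 with calcitriol and 1.36 without treatment. The second Clec4a2 probe set (1425406_at) was higher in 2 of 4 pairs and lower in 2, with a log2 change of 0.21 (SE 0.566). Mrc1 had both signs, higher in Vdr-/- without calcitriol (0.98 with IFN-gamma and 0.73 without treatment) and lower with it (-1.44 with both treatments and -1.23 with calcitriol). With 1 array a group, a genotype effect and a difference between cultures cannot be told apart. The difference in IFN-gamma effect between the genotypes was called for 0 of 10 members and 0% of all tested probe sets, with an unadjusted p under 0.05 for 1 member and 635 probe sets. That member was Clec10a, whose IFN-gamma effect was 2.58 log2 higher in Vdr-/- than in wild type (SE 1.16, adjusted p = 0.996).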

How the data were processed

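RNA of 8 groups of cells was hybridised to 1 single-colour array each. The deposited values are linear probe set intensity signals; no source used here names the software, and the values show that the authors scaled every array to 1 trimmed mean (150.07 to 150.08 after trimming 2% at each end). Of 22690 probe sets 64 controls were set aside. Probe sets were named from the platform annotation, with symbols updated by gene ID, and a gene of a list was represented by its brightest singly named probe set.

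Signals were floored at 15.5 and log2 was taken; 15.5% of tested values were at the floor. Two-sided tests were made with limma 3.58.1 (R 4.3.3) and an intensity trend. IFN-gamma and genotype were fitted with 4 pair blocks (3 residual degrees of freedom), calcitriol effects and both differences nested in genotype (2). Fits were tested on simulated data. Alternatives were other floors, filters and normalization, no trend, additive fits and arrays left out. Members and lists were chosen with earlier results of these data known. Named genes were all members, and up to 4 called genes of each list. Cd93, Fcer1g and Tyrobp, not called, were named after their values were seen. A further motif searched in the promoters is not reported here. Python 3.11.15 with matplotlib 3.10.9 drew the plots.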

Additional observations from a re-analysis of the deposited data

Results flagged for a closer look

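The calcitriol effect on Mrc1 differed between the genotypes by the test of the difference, at 2.19 log2 higher in wild type than in Vdr-/- (limma adjusted p = 0.0435, with a range of 0.0323 to 0.979 over 16 alternatives). Mrc1 was higher with calcitriol in 2 of 2 wild-type pairs and lower in 2 of 2 Vdr-/- pairs. In each genotype the pair without IFN-gamma held 1 high-ratio array, treated in wild type and untreated in Vdr-/-, and Mrc1 was highest on these 2 arrays.

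The probe set shared by Clec4b1 and Clec4a2 was lower with calcitriol in both wild-type pairs (-2.26 and -0.17 log2) and slightly higher in both Vdr-/- pairs (0.11 and 0.05). The tested difference of -1.29 log2, wild type minus Vdr-/-, was not called (limma adjusted p = 0.352).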

How the results depend on the processing

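No paired analysis by replicate number was possible because each group had 1 array. The 7 members called for IFN-gamma kept their sign in all alternatives. The members called numbered 2 with every probe set tested and 0 without the trend, without the 2 high-ratio arrays and without both untreated arrays, and 2 to 5 with 1 pair left out. All probe sets called for IFN-gamma, 619 in the fit reported, numbered 80, 70, 53 and 24 under these settings, 394 with additive covariates, and 99 to 420 with 1 pair left out. For calcitriol in wild type, Mrc1 (1 member) and the 104 probe sets went to 0 members and 0 probe sets without the filter, with a filter at the pooled 75th percentile, without the trend, without either pair of arrays and with any 1 array left out (0 to 0), and to 0 members and 5 probe sets with the lower floor (limma, with 746 to 1959 probe sets at an unadjusted p under 0.05 where the count was 0). The difference between the genotypes gave 0 members and 0 of 271 probe sets under the same settings, and 0 members and 100 probe sets with the lower floor (439 to 2098 at an unadjusted p under 0.05 where the count was 0). Calcitriol in Vdr-/- called 35 probe sets, 18 after quantile normalization, 58 with the higher floor, 1 with the lower floor and 0 under the other settings named (116 to 1045 at an unadjusted p under 0.05). The cause was not tested. The IFN-gamma change of Clec10a (0.20 log2) turned to -0.029 with the lower floor, -0.40 without both untreated arrays, and -0.38 to 1.17 with 1 pair left out. With 1 array or pair left out, the genotype change of Mrc1 (-0.24) ran from -0.65 to 0.16, the calcitriol change of Clec4a2 in wild type (-1.52) from -3.36 to 0.33, and the genotype difference in the IFN-gamma effect on Mrc1 (0.02) from -0.25 to 0.29, and the last was 1.00 without both untreated arrays. Signal over background limits Clec10a, Clec4e and the dimmer probe sets of Clec4n and Clec4a2.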

Other observations

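The genes whose log2 signals over the 8 arrays lay closest to each receptor, after centring each gene on its own mean, were sought among 5682 named genes that spanned at least 2 log2. For Clec4d they were S100a4, Anxa3 and Hpgd, at root mean square differences of 0.28, 0.34 and 0.46 log2. For Clec4a2 they were Ndrg1, S100a4 and Ezr, at 0.42, 0.45 and 0.49 log2. For Mrc1 they were Samd8, Mfsd6l and Pde10a, at 0.36, 0.38 and 0.39 log2. For Clec7a they were Dpp8, Itga2 and Galc, at 0.24, 0.26 and 0.32 log2. For Clec4n they were Cpeb3, Ndufaf7 and Zfp59, at 0.27, 0.36 and 0.36 log2, and for Clec10a Leng8, Slf1 and Meis3, at 0.41, 0.43 and 0.46 log2. Clec4e spanned less than 2 log2 and was not matched. These are descriptions over 8 arrays, 2 of which stood apart.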
